A study of Mus musculus with 2 samples.

Results

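A set of 10 imprinted genes of growth and differentiation was followed across the cell types of the embryonic mouse pancreas: H19, Igf2, Dlk1, Meg3, Peg10, Peg3, Nnat, Mest, Cdkn1c and Kcnq1ot1. They were chosen by name as widely studied imprinted genes, but with earlier results of these data known. Counts of members set beside the shares of all genes below are therefore descriptive. All 10 were present among the 22023 genes counted in both single-cell tables. The tables hold unique molecular identifier (UMI) counts per gene and cell from dissociated E15.5 pancreas, read on the BD Rhapsody platform by whole-transcriptome analysis. The first library came from wild-type (WT) embryos and the other from Mettl3pKO embryos, in which Mettl3, the catalytic subunit of the RNA m6A methyltransferase, was deleted in pancreatic progenitors marked by Pdx1. Pdx1 marks the epithelium that gives rise to acinar, duct and endocrine cells, so mesenchyme, mesothelium, endothelium and blood cells of the Mettl3pKO library were not the labelled target of the deletion. The Cre driver, the number of embryos pooled per library and their strain are not given in the sources used here. With 1 library per genotype there was no replicate, no test between genotypes was possible, and every interval below is a 95% interval for counting error only.

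An imprinted gene is transcribed mainly from the allele of one parent. Many imprinted genes set fetal growth, with a broad tendency for paternally expressed genes such as Igf2, Dlk1, Peg3 and Mest to promote it and for maternally expressed genes such as H19 and Cdkn1c to restrain it. H19 with Igf2, Meg3 with Dlk1, and Kcnq1ot1 with Cdkn1c lie in clusters. In each, the noncoding RNA named first is expressed from the opposite parental allele to that protein-coding neighbour. The other members lie outside these clusters. UMI counts do not separate the parental alleles, so imprinting itself was not measured here.

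Positions are from the GENCODE annotation of GRCm38 (mm10). H19, a noncoding RNA, lies on chr7:142575529-142578143 and Igf2, the fetal insulin-like growth factor, on chr7:142650766-142666816, both on the minus strand and 72.6 kb apart. Kcnq1ot1, the noncoding RNA of the next domain, lies on chr7:143203458-143296549, and Cdkn1c, the cell cycle inhibitor p57, on chr7:143458339-143461050, both on the minus strand and 162 kb apart. Dlk1, a transmembrane Notch-family ligand, lies on chr12:109452823-109463336 and Meg3, a noncoding RNA, on chr12:109541001-109571726, both on the plus strand and 77.7 kb apart. Peg10, a protein derived from a retrotransposon, lies on chr6:4747306-4760517 and Mest, a hydrolase-fold protein, on chr6:30723547-30748465, both on the plus strand. Peg3, a zinc finger protein, lies on the minus strand of chr7:6703892-6730431, and Nnat, a small endoplasmic reticulum proteolipid, on the plus strand of chr2:157560078-157562522.

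Promoter windows of Meg3, Dlk1 and Peg3 are shown because Meg3, like Nnat, was lower in Mettl3pKO in most cell classes, Dlk1 is its neighbour, and Peg3 followed Meg3 most closely across classes. Each line gives the 250 bases before a RefSeq start site (GRCm38.p6), 5′ to 3′ on the strand of the gene, with matches in capitals to TATAAA, to the cAMP response element TGACGTCA, to GGGCGG or to CCAAT on either strand.
Meg3, chr12:109540746-109540995, plus strand: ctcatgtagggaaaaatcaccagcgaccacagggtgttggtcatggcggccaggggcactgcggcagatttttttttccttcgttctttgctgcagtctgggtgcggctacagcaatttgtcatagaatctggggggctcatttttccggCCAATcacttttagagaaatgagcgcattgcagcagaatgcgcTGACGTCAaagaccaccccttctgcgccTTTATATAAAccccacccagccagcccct
Dlk1, chr12:109452573-109452822, plus strand: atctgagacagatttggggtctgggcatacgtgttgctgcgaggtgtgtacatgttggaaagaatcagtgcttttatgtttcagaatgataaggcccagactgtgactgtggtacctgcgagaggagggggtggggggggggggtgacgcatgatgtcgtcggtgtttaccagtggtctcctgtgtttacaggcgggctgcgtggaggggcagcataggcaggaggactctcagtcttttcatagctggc
Peg3, chr7:6730420-6730669, minus strand: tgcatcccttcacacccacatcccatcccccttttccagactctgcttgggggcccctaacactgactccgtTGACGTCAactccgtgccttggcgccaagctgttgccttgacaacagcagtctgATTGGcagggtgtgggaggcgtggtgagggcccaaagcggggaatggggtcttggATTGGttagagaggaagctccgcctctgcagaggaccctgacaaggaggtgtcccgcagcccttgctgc
The printed Meg3 window held TATAAA on both strands within 1 run of capitals, TGACGTCA and CCAAT, and the Peg3 window held TGACGTCA and CCAAT, the latter on the opposite strand. A second Meg3 start-site window, chr12:109545148-109545397, is not printed; it held none of these words and 0 CpG. None of these words occurred in the Dlk1 window. Over the 32851 promoter windows of the same length, 12.4% held TATAAA, 1.55% held TGACGTCA, 32.7% held GGGCGG and 33.8% held CCAAT. CpG dinucleotides numbered 10 in the printed Meg3 window and 8 in each of the others, against a median of 6.

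H19 and Meg3 are also the host transcripts of microRNAs that lie in their exons. The mature sequences are given because a change in the host RNA is read here without any measurement of the microRNA itself; capitals mark the seed, bases 2 to 8, and the letters are from RefSeq.
miR-675-5p, in H19: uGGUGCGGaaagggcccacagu
miR-675-3p, in H19: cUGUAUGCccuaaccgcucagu
miR-770-5p, in Meg3: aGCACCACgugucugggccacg
miR-770-3p, in Meg3: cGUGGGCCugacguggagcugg
No seed was shared between these 4 sequences. The pentamer GGACT, the form of the m6A consensus searched, occurred 6 times in the longest H19 transcript, or 2.62 times per kb, and 95.5% of 21151 genes had fewer per kb. Meg3 held 1.10 per kb, near the median of 1.03, and Nnat held none. A match is a sequence feature only, since m6A was not measured in these files.

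The WT table held 6384 complete cells with a median of 10823 UMIs, and that of Mettl3pKO held 3624 cells with a median of 16481 and none under 10719. After filters 6034 and 3622 cells remained, and 33 cell labels occurred in both libraries. Clusters were drawn without the 10 genes and named from marker lists. Scrublet, a doublet caller, marked 338 WT cells and 1 Mettl3pKO cell, so it did not work on the Mettl3pKO library. Cells that carried over 1000 CPM (counts per 1000000 UMIs) of a mesenchymal list, or over 10000 CPM of an acinar list, outside the class of that list are called mixed below. They made up 7 of 302 WT and 35 of 175 Mettl3pKO alpha-like cells, and 1.63% and 17.7% of beta-like cells. In duct and trunk-like cells they made up 5.08% and 16.6%, but in acinar-like cells only 0.484% and 0.611%. These shares were counted after Scrublet-marked cells were left out, which took out 338 WT cells but 1 Mettl3pKO cell. The part of this one-sided removal in the shares and in the ratios between libraries was not tested. Cells with Y-linked UMIs and no Xist made up 28.2% of the WT and 56.3% of the Mettl3pKO library. The embryos thus differed in sex makeup as well as genotype, and the 2 cannot be told apart in unsplit values. The split also differed between WT classes. Cells with Y-linked UMIs and cells with Xist numbered 173 and 1368 in acinar-like, 473 and 608 in duct and trunk-like and 119 and 80 in beta-like cells. Levels compared between WT classes therefore also differ in this split. Mettl3 itself was at 9.35 CPM in WT and 7.24 CPM in Mettl3pKO acinar-like cells (ratio 0.774, 0.652 to 0.919), at 17.7 and 11.6 CPM in duct and trunk-like cells (0.654, 0.505 to 0.838), and at 16.4 and 13.7 CPM in mesenchyme-like cells (0.837, 0.607 to 1.14). The UMIs are read near the 3′ end and may lie outside the deleted exons, so this level does not check the deletion.

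The 10 genes divided the pancreas into compartments. In WT, the summed level of H19 was 15664 CPM in mesenchyme-like cells (n = 1178 cells), 14001 CPM in smooth muscle and pericyte-like cells, 10702 CPM in mesothelium-like cells, 7472 CPM in endothelium-like cells and 5705 CPM in acinar-like cells (n = 1860). It was 947 CPM in duct and trunk-like cells (n = 1300), 197 CPM in alpha-like cells (n = 302) and 167 CPM in beta-like cells (n = 246). Acinar-like cells were thus the epithelial class with high H19, and the counting intervals of neighbours among these 8 classes did not overlap. The same order held in Mettl3pKO for mesenchyme-like (13660.5 CPM), mesothelium-like (6993 CPM), acinar-like (4980.2 CPM) and duct and trunk-like cells (1692 CPM). The beta-like level there (1258 CPM) lay above the alpha-like level (926 CPM) with all cells, but below it without mixed cells (127 and 198 CPM). In WT the alpha-like and beta-like intervals overlapped without mixed cells (89.0 to 109 CPM and 79.7 to 98.6 CPM).

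Igf2, which shares enhancers with H19, was counted at far lower levels. Mesenchyme-like cells held 95.1 CPM in WT and 86.1 CPM in Mettl3pKO, and 48.6% of WT and 46.5% of Mettl3pKO mesenchyme-like cells had an Igf2 UMI after each cell was thinned to 7500 UMIs. Acinar-like cells held 3.58 and 3.61 CPM, and duct and trunk-like cells 1.52 and 3.17 CPM. The duct and trunk-like levels rested on 23 UMIs in each library, and the interval of their ratio was 1.12 to 3.89. In the annotation a same-strand gene, Gm49394, shares 62.8% of the exonic bases of Igf2, and it had 1 UMI in WT and none in Mettl3pKO. No label or header says how reads in shared exons were assigned, so the Igf2 level may be understated and its part in the low count was not tested.

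Dlk1 was high in mesenchyme-like (8396 CPM in WT, 7304 CPM in Mettl3pKO) and mesothelium-like cells (5367 and 3898 CPM). Among epithelial classes it was highest in beta-like cells, at 3218 and 2377 CPM. The WT delta-like cells held 2633 CPM, and acinar-like, alpha-like and duct and trunk-like cells lay between 340 and 536 CPM in WT. Meg3, from the same domain, had another distribution. It was at 3778 CPM in WT delta-like cells, 2596 CPM in mesenchyme-like cells, 2541 CPM in mesothelium-like cells, 2274 CPM in beta-like cells and 1657 CPM in alpha-like cells. Duct and trunk-like cells held 1150.0 CPM, with 1868 CPM in the trunk cluster led by Neurog3, the transcription factor that starts endocrine differentiation. Acinar-like cells held 416 CPM and endothelium-like cells 106 CPM. H19 and Meg3, both noncoding RNAs of imprinted clusters, were thus at opposite ends of the epithelium.

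Cdkn1c was a mesenchymal transcript at this stage, at 5341 CPM in WT and 5302 CPM in Mettl3pKO mesenchyme-like cells, and it was the leading gene of 1 mesenchymal cluster. In epithelial classes of WT it lay between 37.4 CPM (beta-like) and 345 CPM (duct and trunk-like). Kcnq1ot1 was at 167 CPM in mesenchyme-like and between 26.2 and 53.5 CPM in the 4 epithelial classes of WT. Mest was at 3915 CPM in endothelium-like, 2547 CPM in mesenchyme-like and 2323 CPM in smooth muscle and pericyte-like cells, against 151 CPM in acinar-like and 10.96 CPM in beta-like cells.

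Among classes with at least 30 cells, Peg10 was highest in alpha-like and Nnat in beta-like cells, while Peg3 was shared with mesenchyme. Peg10 was at 3864 CPM in WT and 2379 CPM in Mettl3pKO alpha-like cells, second only to Gcg (glucagon) among the leading genes of that cluster. In WT, delta-like cells held 529 CPM of Peg10, mesenchyme-like cells 473 CPM, beta-like cells 35.1 CPM and acinar-like cells 14.0 CPM. Nnat was at 20664 CPM in WT and 12929 CPM in Mettl3pKO beta-like cells, after only Ins1 and Ins2 (insulin) among the leading genes of that cluster, and at 938 CPM in WT delta-like and 764 CPM in WT mesothelium-like cells. All other compared classes of WT held under 100 CPM of Nnat. Peg3 was broader, at 2965 CPM in alpha-like, 2346 CPM in mesenchyme-like, 2260.0 CPM in endocrine progenitor-like and 225 CPM in acinar-like cells of WT. WT beta-like cells held 866 CPM of Peg3, near the 853 CPM of duct and trunk-like cells.

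**Figure D1:**
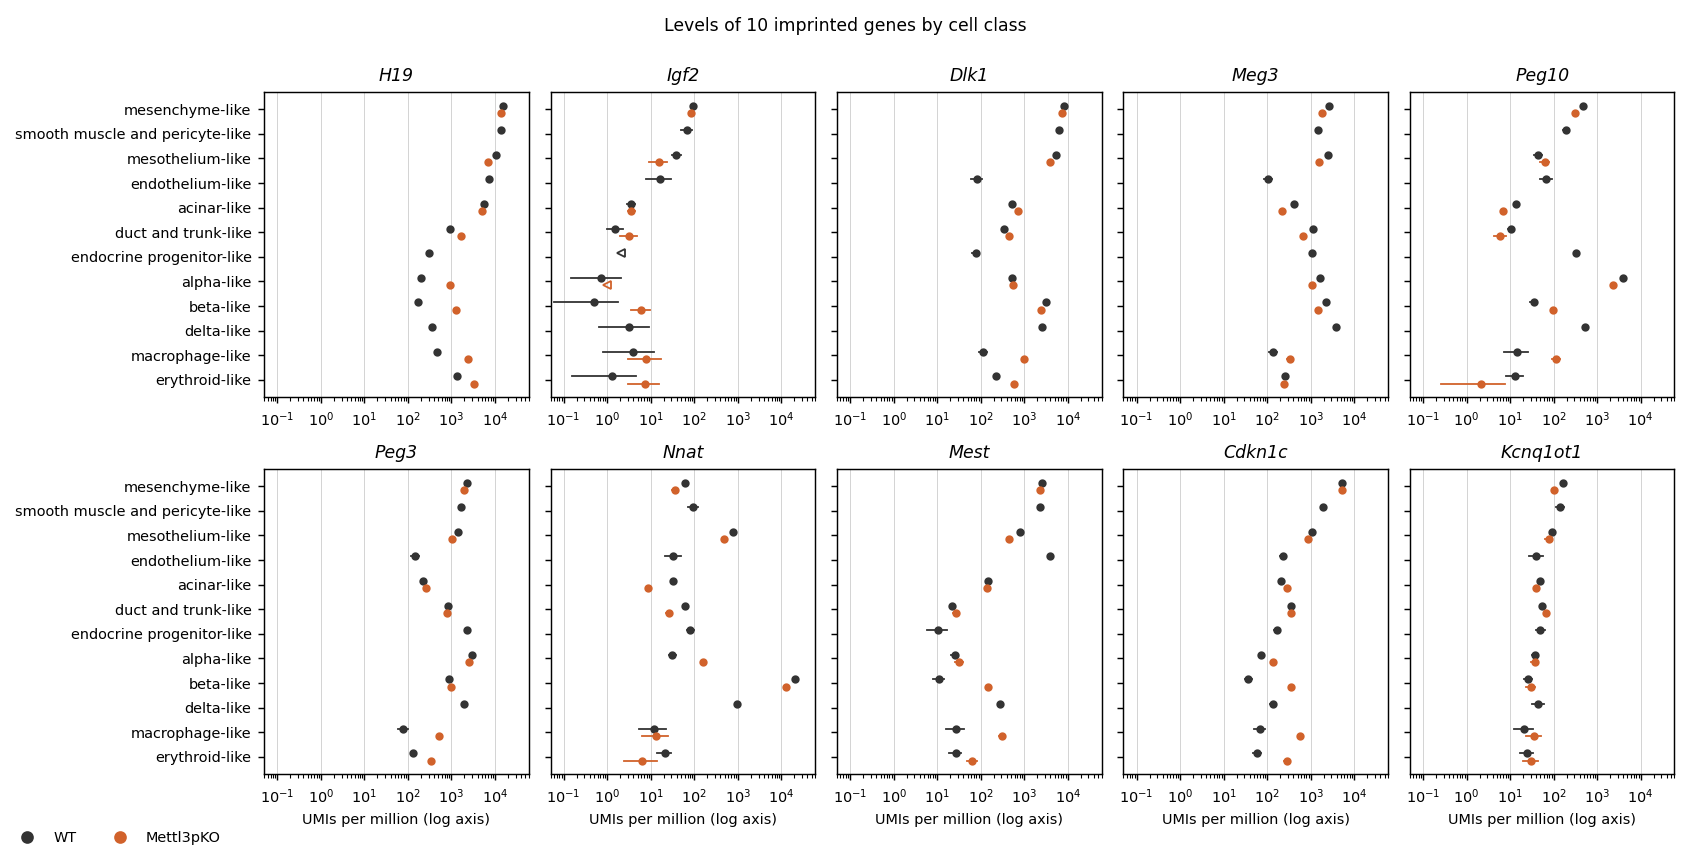
Level of each gene in CPM (log axis) by cell class, with 1 point for the WT and 1 for the Mettl3pKO library where it holds at least 30 cells, and exact 95% Poisson intervals for counting error; open triangles are upper limits for a count of 0. H19 runs from 167 CPM in WT beta-like to 15664 CPM in WT mesenchyme-like cells, whereas Nnat peaks in beta-like and Peg10 in alpha-like cells.

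Free RNA from lysed cells adds counts of abundant transcripts to every cell. A level that such RNA and mixed cells together could bring was computed from source transcripts: mesenchymal genes, acinar genes, Ins1 with Ins2, and Gcg, each taken in a class as a share of its level in the source, and multiplied by the level of the imprinted gene in that source. This bound is an estimate from 4 sources and not a correction. H19 in acinar-like cells stood 61.1 times above it in WT and 54.1 times in Mettl3pKO. Meg3 stood 17.4 and 15.0 times above it in acinar-like, 30.5 and 12.4 times in duct and trunk-like, 54.0 and 12.2 times in alpha-like and 81.5 and 9.92 times in beta-like cells.

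Other low values lay at the level that free RNA could bring. Nnat in acinar-like cells was at 31.9 CPM against 43.3 CPM brought in WT, and at 8.67 against 13.1 CPM in Mettl3pKO. H19 in alpha-like cells was at 0.893 of the brought level in WT and 0.715 in Mettl3pKO, and in beta-like cells at 0.781 and 1.10 of it. Mest in beta-like cells was at 0.572 and 0.919 of it, and Cdkn1c there at 0.982 and 0.986. Peg10 in acinar-like cells was at 1.17 and 1.16 times that level. The part of free RNA in the differences of these values between the libraries was not tested.

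**Figure D2:**
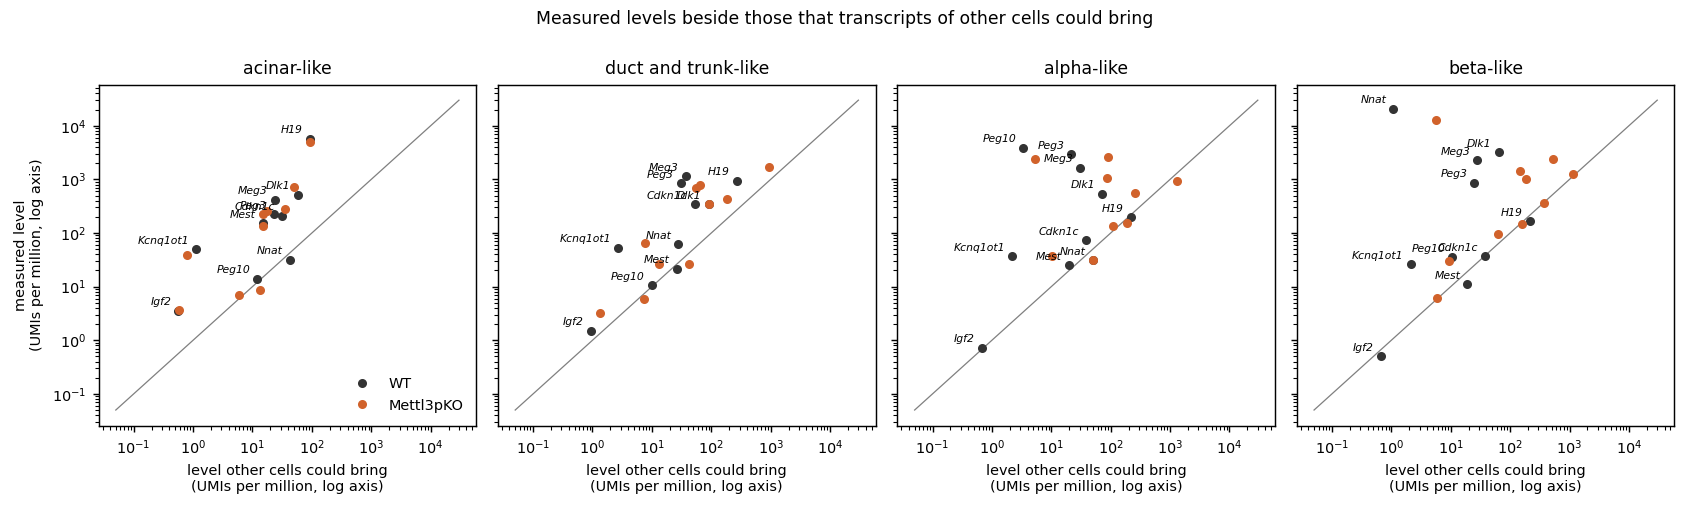
Measured level (vertical log axis, CPM) against the level that free RNA and mixed cells could bring (horizontal log axis, CPM), with 1 point per gene and library in each of 4 epithelial classes; the diagonal marks equality and names stand beside WT points. Meg3 lies far above the diagonal in all 4 classes, while H19, Mest and Cdkn1c in beta-like cells lie near or below it.

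Between genotypes, Meg3 was lower in Mettl3pKO in most classes, and Nnat was lower in beta-like cells. In acinar-like cells Cdkn1c and Dlk1 were higher by less than 1.5-fold; 72.7% of genes had a lower ratio than Dlk1 there and 69.1% a lower ratio than Cdkn1c, and with clusters matched Dlk1 in acinar-like cells was at 1.00. A difference was counted where the level differed by at least 1.5 times and both libraries together held at least 20 UMIs of the gene. In acinar-like cells, the largest class, none of 10 members was higher, against 21.2% of 13610 genes, and 3 were lower (Meg3, Peg10 and Nnat), against 8.80% of genes. The members' median log2 ratio of Mettl3pKO to WT was -0.17, against 0.17 over all genes. In duct and trunk-like cells 2 of 10 were higher (H19 and Igf2; 11.6% of genes) and 3 lower (Meg3, Peg10 and Nnat; 10% of genes), with a median of 0.16 against 0.01. In alpha-like cells 3 of 9 were higher (11.5% of genes) and 2 lower (6.78% of genes), with a median of 0.07 against -0.06. In beta-like cells 4 of 9 were higher (12.9% of genes) and 2 lower (4.65% of genes), with a median of 0.22 against 0.04.

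Outside the epithelium, mesenchyme-like cells had none of 10 higher (8.75% of genes) and 3 lower, Peg10, Nnat and Kcnq1ot1 (6.16% of genes), with a median of -0.24 against 0.02. Mesothelium-like cells had none higher (14.0% of genes) and 5 lower, H19, Igf2, Meg3, Nnat and Mest (13% of genes), with a median of -0.54 against -0.01. After mixed cells were left out, an alternative chosen after seeing the data, the counts higher and lower were 0 and 3 in acinar-like cells, beside 21.1% and 8.85% of all genes in the same cells. They were 1 and 3 in duct and trunk-like cells (11.9% and 9.97% of genes), 2 and 0 in alpha-like cells (7.49% and 5.10%) and 0 and 2 in beta-like cells (6.98% and 7.18%). In mesenchyme-like cells they were 0 and 3 (8.35% and 6.31% of genes), and in mesothelium-like cells 1 and 2 (11.99% and 11.04%).

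**Figure D3:**
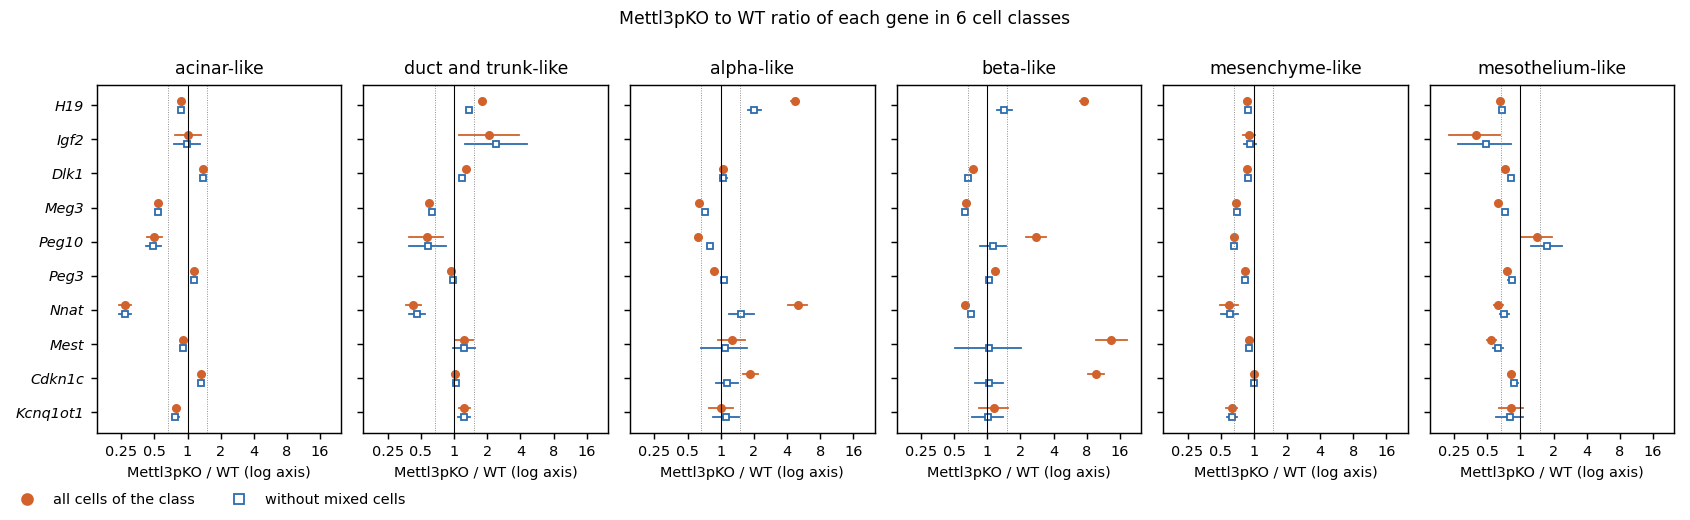
Ratio of the Mettl3pKO to the WT level (log axis) for each gene in each cell class with 95% counting intervals, with all cells and without mixed cells; dotted lines mark 1.5-fold either way. Meg3 lies below 1 in all 6 epithelial, mesenchymal and mesothelial classes, and the high ratios of Mest, Cdkn1c and H19 in beta-like cells approach 1 without mixed cells.

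Meg3 was lower in Mettl3pKO in the 6 classes from acinar-like to mesothelium-like. Acinar-like cells held 416 CPM in WT and 223 CPM in Mettl3pKO, a ratio of 0.535 (0.520 to 0.550). Duct and trunk-like cells held 1150.0 and 681 CPM, a ratio of 0.592, and alpha-like cells 1657 and 1054 CPM, a ratio of 0.636. In beta-like cells the levels were 2274 and 1457 CPM, a ratio of 0.641, and in mesenchyme-like cells, outside the deletion, 2596 and 1785 CPM, a ratio of 0.688. Mesothelium-like cells held 2541 and 1597 CPM, a ratio of 0.628. The difference was thus of similar size in classes with and without the labelled deletion, and whether it differed between them was not tested. Without mixed cells the ratio was 0.623 in duct and trunk-like, 0.727 in alpha-like, 0.627 in beta-like and 0.727 in mesothelium-like cells. After thinning to 7500 UMIs, 84.9% (83.1% to 86.5%) of WT and 70.4% (68.4% to 72.3%) of Mettl3pKO acinar-like cells had a Meg3 UMI.

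The lower Meg3 level recurred in most clusters. The Nnat interval lay below 1 in 15 of the 17 clusters described next, but 6 of these were acinar clusters. In acinar-like cells Nnat (31.9 and 8.67 CPM) lay below the level that free RNA could bring. In mesenchyme-like cells 20% of WT and 18.8% of Mettl3pKO cells had an Nnat UMI after thinning, and 1 WT cell held 84 of 676 UMIs. Of the 17 named clusters with at least 30 cells in each library, the interval of the Meg3 ratio lay below 1 in 13 and above 1 in 1, the macrophage-like cluster, with a median ratio of 0.699. Among the 6 acinar clusters compared the ratio ran from 0.585 in the cluster led by Rnase1 to 1.05 in the cluster led by Spink1, and in the 3 mesenchymal clusters from 0.699 to 0.789. With WT weighted to the cluster makeup of Mettl3pKO, an alternative chosen after seeing the data, the ratio of Meg3 in acinar-like cells was 0.713, of Meg3 in duct and trunk-like cells 0.733 and of Meg3 in mesenchyme-like cells 0.755. Mirg, another noncoding RNA of the Meg3 domain, had ratios of 0.879 in acinar-like, 0.802 in duct and trunk-like, 0.755 in alpha-like, 0.708 in beta-like and 0.669 in mesenchyme-like cells. Malat1 and Neat1, nuclear noncoding RNAs from elsewhere in the genome, were also lower in acinar-like cells, with ratios of 0.660 and 0.606. Malat1 had ratios of 0.976 in duct and trunk-like, 0.922 in mesenchyme-like, 0.890 in beta-like, 0.806 in alpha-like and 0.826 in mesothelium-like cells, and its interval lay below 1 in 7 and above 1 in 4 of the 17 clusters. Neat1, at few UMIs, had ratios of 0.776 in duct and trunk-like, 0.530 in alpha-like, 0.903 in beta-like and 0.819 in mesenchyme-like cells. In mesothelium-like cells Neat1 was at 1.53 of WT (0.740 to 3.14). Of these Neat1 intervals only the alpha-like, 0.284 to 0.946, did not hold 1. Over the 17 clusters the Neat1 interval lay below 1 in 1 and above 1 in 0. Whether lower Meg3 belongs to nuclear RNAs in general was not tested.

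Dlk1 was higher in Mettl3pKO in acinar-like and duct and trunk-like cells, where Meg3 was lower, and lower with Meg3 in beta-like, mesenchyme-like and mesothelium-like cells. Its ratio was 1.39 (1.37 to 1.42) in acinar-like cells, from 522 to 727 CPM, and 1.28 in duct and trunk-like cells, from 340 to 436 CPM. The ratio of Dlk1 in duct and trunk-like cells turned to 0.766 without proliferating cells, and was 2.14 among cells with Xist. It was 0.739 in beta-like and 0.870 in mesenchyme-like cells. Within acinar clusters the Dlk1 ratio ran only from 0.906 to 1.20, and with clusters matched the ratio of Dlk1 in acinar-like cells was 1.00. The duct cluster led by Onecut2 had 210 CPM in 58 WT cells and 525 CPM in 134 Mettl3pKO cells, a ratio of 2.50 (2.09 to 3.01). That ratio includes mixed cells, and the acinar marker list was the next best for the cluster after the duct and trunk list. Of the 72 mixed Mettl3pKO duct and trunk-like cells, 69 passed the acinar limit. The part of acinar transcripts in this ratio was not tested.

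Cdkn1c was at 210 CPM in WT and 280 CPM in Mettl3pKO acinar-like cells, a ratio of 1.33 (1.29 to 1.38), under the 1.5-fold mark. It was higher in each of the 6 acinar clusters compared, with ratios from 1.33 to 1.63. The share of acinar-like cells with a Cdkn1c UMI after thinning did not rise, at 60.2% in WT and 59.1% in Mettl3pKO. Their median was 2 UMIs per cell in both libraries, and the highest count was 63 in WT and 220 in Mettl3pKO. Across the alternatives run, the ratio of Cdkn1c in acinar-like cells was from 1.13 to 1.72. The lowest was without cells holding 3 or more mesenchymal UMIs and the highest without proliferating cells. In duct and trunk-like cells the levels were 345 and 349 CPM, and in mesenchyme-like cells 5341 and 5302 CPM. Kcnq1ot1, whose transcription silences Cdkn1c on the same chromosome, had ratios of 0.786 in acinar-like, 1.23 in duct and trunk-like and 0.628 in mesenchyme-like cells.

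H19 was at 5705 CPM in WT and 4980.2 CPM in Mettl3pKO acinar-like cells, a ratio of 0.873 (0.867 to 0.879), and at 0.872 of WT in mesenchyme-like cells. In duct and trunk-like cells it went from 947 to 1692 CPM, a ratio of 1.79, and of 1.35 without mixed cells, while the level that free RNA and mixed cells could bring went from 268 to 951.5 CPM. With Scrublet-marked cells kept, H19 in duct and trunk-like cells was at 1.33 of WT. Across acinar clusters of WT it ran from 3201 CPM in the dividing cluster led by Ube2c to 9547 CPM in the cluster led by Cpb1 and Prss1, digestive enzyme genes. The ratio between libraries ran from 0.836 to 1.22 over the 6 clusters compared, and with clusters matched H19 in acinar-like cells was at 1.06 of WT, on the other side of 1 from the pooled value. Mest was at 151 and 137 CPM over all acinar-like cells, but lower in 4 of the 6 clusters, at 0.570 to 0.778 of WT, and higher in the cluster led by Spink1, at 1.43. Peg3 had ratios of 1.16 in acinar-like, 0.937 in duct and trunk-like and 0.826 in mesenchyme-like cells.

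**Figure D4:**
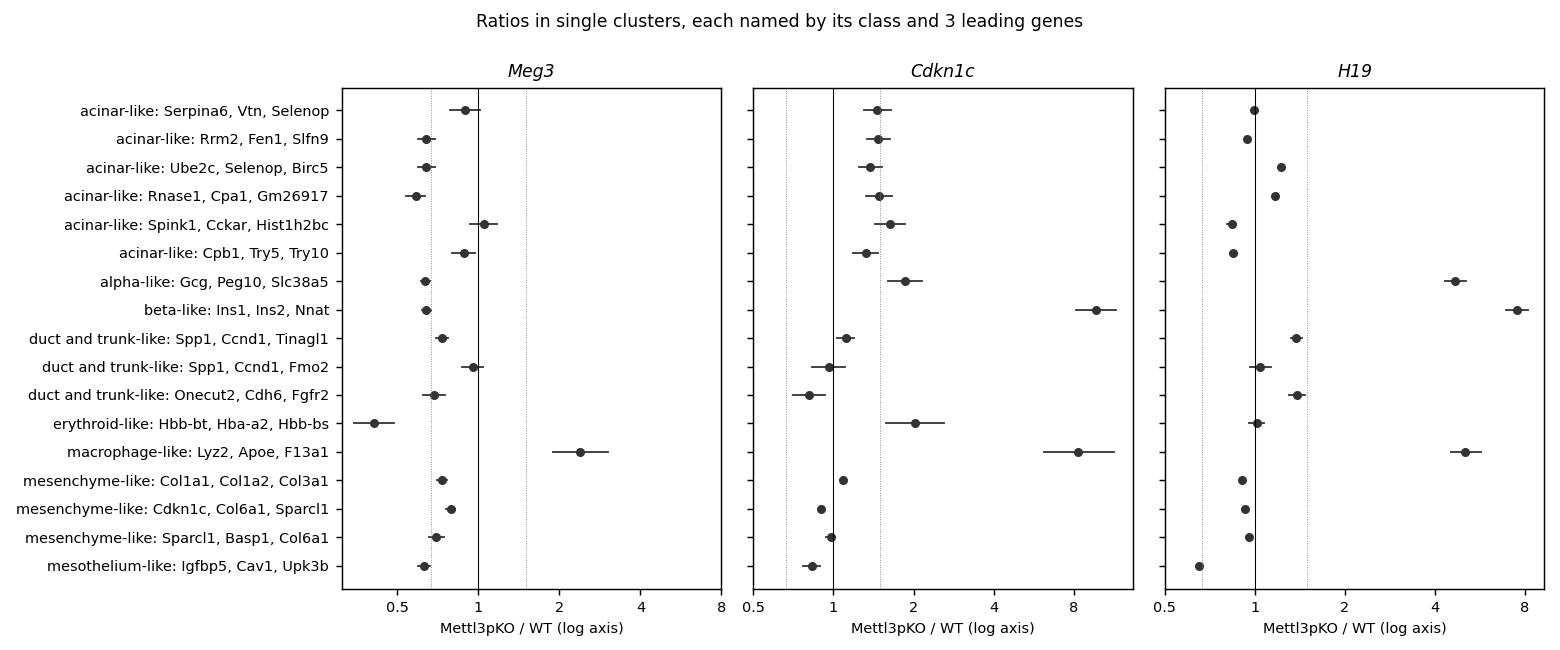
Ratio of the Mettl3pKO to the WT level (log axis) of Meg3, Cdkn1c and H19 in each of 17 named clusters, labelled by class and 3 leading genes, with 95% counting intervals; dotted lines mark 1.5-fold either way. The Meg3 interval lies below 1 in 13 of the 17, and Cdkn1c lies above 1 in all 6 acinar clusters.

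In the endocrine classes the size of several differences depended on mixed cells. Nnat in beta-like cells was at 20664 and 12929 CPM, a ratio of 0.626, and at 0.704 without mixed cells. Peg10 in alpha-like cells was at 3864 and 2379 CPM, a ratio of 0.616, and at 0.795 without mixed cells. Both hallmark transcripts were lower in Mettl3pKO, and both differences shrank below 1.5-fold when mixed cells were left out. The raised values were more affected. Mest in beta-like cells was 13.3 times the WT level with all cells and 1.04 times without mixed cells, and Cdkn1c 9.67 and 1.04 times. H19 in beta-like cells was 7.53 and 1.43 times, and in alpha-like cells 4.69 and 2.01 times, at or near the level free RNA could bring. The mesenchymal list in beta-like cells was at 0.631% of its mesenchymal level in WT and 6.64% in Mettl3pKO, and the acinar list in alpha-like cells at 2.12% and 23.6% of its acinar level.

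Some further members differed in these classes. Nnat in alpha-like cells was at 5.01 times the WT level and at 1.54 times without mixed cells, Cdkn1c there at 1.86 and 1.13 times, and Peg10 in beta-like cells at 2.77 and 1.13 times. Dlk1 in beta-like cells was at 0.739 of WT, and at 0.662, past the 1.5-fold mark, without mixed cells. Those that follow differed by less than 1.5-fold. Peg3 in alpha-like cells was at 2965 CPM in WT and 2594 CPM in Mettl3pKO, a ratio of 0.875, and of 1.08 without mixed cells. In beta-like cells Peg3 had a ratio of 1.16 and Kcnq1ot1 of 1.14, and in alpha-like cells Kcnq1ot1 had a ratio of 1.01 and Dlk1 of 1.05. Igf2 had fewer than 20 UMIs in each of these classes and was not compared.

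Nnat was low and lower in Mettl3pKO in acinar-like (31.9 and 8.67 CPM, ratio 0.271), duct and trunk-like (61.1 and 26.0 CPM, 0.427) and mesenchyme-like cells (60.6 and 36.2 CPM, 0.597). Nnat is abundant in beta-like cells, and Ins1 with Ins2 in acinar-like cells stood at 0.207% of their beta-like level in WT and 0.0978% in Mettl3pKO. Peg10 was likewise lower in acinar-like (14.0 and 6.97 CPM) and duct and trunk-like cells (10.5 and 5.93 CPM), where it stood near the brought level. In mesenchyme-like cells, in contrast, Peg10 was at 473 and 311 CPM, a ratio of 0.657.

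Mesothelium-like cells, the lining of the organ, had lower levels of most members in Mettl3pKO. H19 went from 10702 to 6993 CPM, a ratio of 0.653 (0.637 to 0.670), Mest from 821 to 447 CPM (0.544), and Igf2 from 39.0 to 15.4 CPM (0.394). Dlk1, Peg3, Cdkn1c and Kcnq1ot1 had ratios of 0.726, 0.752, 0.829 and 0.817. Nnat, at 764 and 482 CPM, had a ratio of 0.631. Peg10, at 44.5 and 62.3 CPM, had a ratio of 1.40, but 1 Mettl3pKO cell held 35 of its 77 UMIs there. The ratio of Peg10 in mesothelium-like cells was 0.323 with classes from each cell's own markers and 2.49 among cells with Y-linked UMIs. The class held 202 WT and 75 Mettl3pKO cells, of which 2 and 12 were mixed, and without those cells the ratio of H19 was 0.680 and of Nnat 0.715. In mesenchyme-like cells the ratios of Mest and Igf2 were 0.900 and 0.905, nearer to 1.

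The smallest compared classes had the largest shares of mixed cells in Mettl3pKO. All 8 measured members were higher in Mettl3pKO macrophage-like cells, with ratios from 1.69 to 11.4 (21.8% of genes were higher and 13.5% lower), but 35.7% of those 42 cells were mixed. In erythroid-like cells 5 of 9 were higher (29.6% of genes) and 2 lower (26.9% of genes), and 73.5% of the 49 Mettl3pKO cells were mixed. Without mixed cells neither class kept 30 cells in both libraries, so no value is given.

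The libraries differed in sex makeup, so levels were also taken by sex of the cell. H19 in WT acinar-like cells was at 6077 CPM in 1368 cells with Xist and at 3080.0 CPM in 173 cells with Y-linked UMIs, a ratio of 0.507 (0.495 to 0.519). In Mettl3pKO the same values were 5391 and 4748 CPM, a ratio of 0.881. In WT duct and trunk-like cells H19 was again lower in cells with Y-linked UMIs, at 636 against 1197 CPM, whereas in WT mesenchyme-like cells it was at 16004 against 15447 CPM. The ratio of Mettl3pKO to WT of H19 in acinar-like cells was therefore 1.54 among cells with Y-linked UMIs and 0.887 among cells with Xist, opposite in direction. Meg3 in acinar-like cells had ratios of 0.441 and 0.577 in the same split, Meg3 in duct and trunk-like cells 0.586 and 0.573, and Meg3 in mesenchyme-like cells 0.657 and 0.762, lower in both. Cdkn1c in acinar-like cells was higher in both, at 1.35 and 1.45. Since embryos were pooled, cells of 1 sex come from different embryos than cells of the other, and sex and embryo cannot be told apart. The split was also not matched for cluster, although H19 differed across acinar clusters. The part of cluster makeup in these values was not tested.

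**Figure D5:**
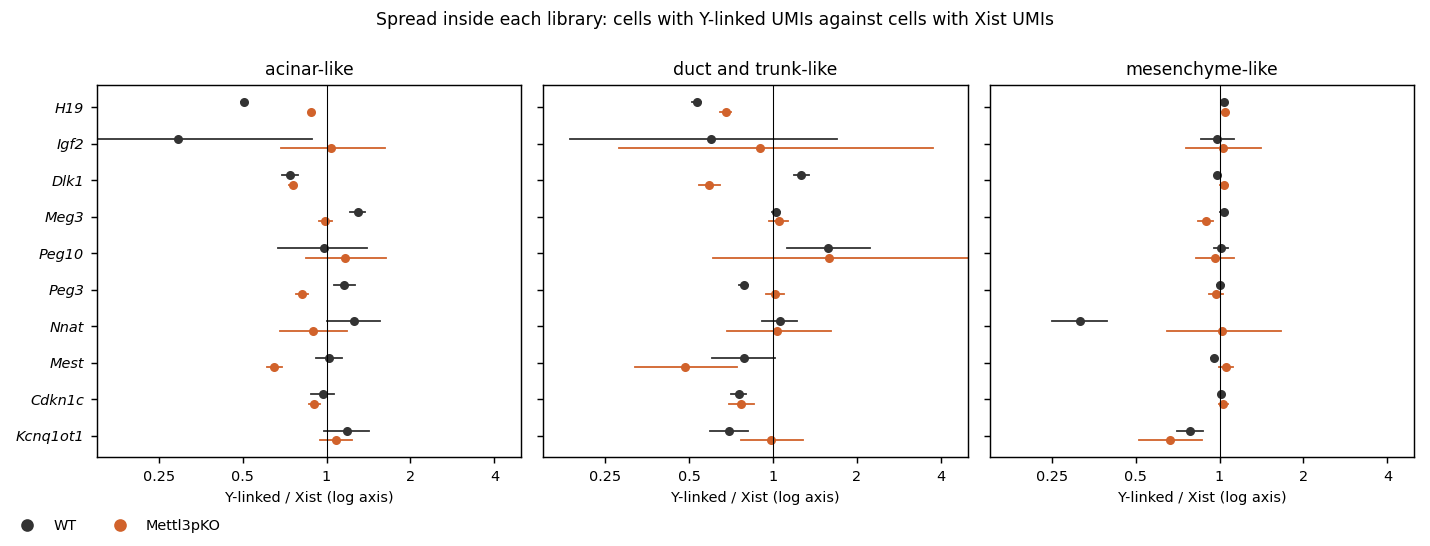
Level in cells with Y-linked UMIs divided by the level in cells with Xist (log axis) for each gene, within each library and in 3 cell classes, with 95% counting intervals; some wide intervals run past the axis. H19 in WT acinar-like cells is at 0.507, while in WT mesenchyme-like cells 8 of the 10 genes lie close to 1 and Nnat, at 0.316, and Kcnq1ot1, at 0.785, do not.

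Dividing cells were more frequent in Mettl3pKO, at 85.6% against 66.5% of acinar-like, 90.1% against 52.8% of duct and trunk-like and 86.2% against 46.5% of mesenchyme-like cells as cells with at least 2 UMIs of a proliferation list, which a deeper library passes more easily. Dividing and other cells of a class were then compared without mixed cells. Meg3 was lower in dividing cells, at 0.606 of the level of other acinar-like cells in WT and 0.731 in Mettl3pKO. Kcnq1ot1 was at 0.600 and 0.655 in the same comparison, and Cdkn1c, a brake on the cell cycle, at 0.761 and 0.586. Mest was higher in dividing acinar-like cells of WT, at 1.71 times the level of the others, and at 1.07 times in Mettl3pKO. Among cells without proliferation UMIs past that threshold, mixed cells kept, the ratio of Mettl3pKO to WT was 0.502 for Meg3 in acinar-like cells. It was 0.732 for Meg3 in duct and trunk-like cells and 0.730 for Meg3 in mesenchyme-like cells. Few Mettl3pKO cells lay below the threshold: without mixed cells, 35 duct and trunk-like and 38 mesenchyme-like cells.

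The other genes of these pathways were taken from lists of 48 further imprinted genes, 45 of them in both tables, and 22 genes of insulin-like growth factor signalling. Of 40 other imprinted genes measured in acinar-like cells, 8 were higher and 1 lower, beside 21.2% and 8.80% of all genes, with a median log2 ratio of 0.11 against 0.17 over all genes. In duct and trunk-like cells 4 of 38 were higher and 4 lower (11.6% and 10% of all genes; median -0.15 against 0.01), and in mesenchyme-like cells 2 of 39 were higher and 2 lower (8.75% and 6.16% of all genes; median -0.07 against 0.02). Of these, the 4 farthest from 1 by their intervals were Inpp5f (ratio 2.64), Mcts2 (2.26), Asb4 (2.36) and Ndn (1.79) in acinar-like cells, where Ndn, a growth-restraining MAGE protein, went from 12.6 to 22.5 CPM. They were Ddc (4.92), Asb4 (4.83), Slc22a2 (0.348) and Usp29 (1.98) in duct and trunk-like cells. In mesenchyme-like cells they were Smoc1 (3.85), Mirg (0.669), Airn (0.679) and Kcnq1 (3.04, but 1.05 without mixed cells), and Mirg went from 79.9 to 53.4 CPM. Of the growth factor list, 4 of 19 were higher and 2 lower in acinar-like cells, near the same shares of all genes (21.2% and 8.80%), with a median of 0.11 against 0.17. In duct and trunk-like cells 5 of 16 were higher and 2 lower (11.6% and 10% of all genes; median 0.13 against 0.01), and in mesenchyme-like cells 1 of 17 was higher and 2 lower (8.75% and 6.16%; median -0.21 against 0.02).

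Igfals, a carrier of circulating insulin-like growth factors, went from 8.51 to 30.03 CPM in acinar-like cells (ratio 3.53). The insulin receptor Insr (1.76), the binding protein Igfbp4 (1.74) and the RNA-binding protein Igf2bp1 (1.53) were the next farthest there. In duct and trunk-like cells Igf1, the second ligand of the pathway, had a ratio of 4.56, and of 2.34 without mixed cells, Igfals 3.59 and Igfbp2 2.41. Igfbp7 went from 237 to 140 CPM there, a ratio of 0.591. In mesenchyme-like cells the protease genes Pappa and Htra1 had ratios of 0.400 and 0.566, and the binding protein genes Igfbp6 and Igfbp5 ratios of 1.83 and 0.672, the last from 607 to 408 CPM.

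Across the 20 combinations of class and library, which share libraries, depth and free RNA, the levels of some members varied together. Pearson's r of log2 levels was 0.902 between Igf2 and Mest, 0.880 between Meg3 and Peg3, 0.876 between Cdkn1c and Kcnq1ot1 and 0.853 between H19 and Igf2, against 0.718 between Dlk1 and Meg3 and -0.08 between H19 and Meg3. Among 11670 genes, the 3 whose pattern was most like H19 were Kdelr3 (r = 0.943), Gpx8 (0.937) and Flrt2 (0.934). For Igf2 they were Fam114a1 (0.939), Itm2a (0.937) and Lrig3 (0.936), for Dlk1 Tenm3 (0.941), Pcolce (0.890) and Col6a6 (0.865), for Meg3 Pkdcc (0.926), Cacnb1 (0.922) and Cpt1c (0.921), and for Peg10 Pdk4 (0.904), Kcnk3 (0.902) and Mum1l1 (0.894).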

How the data were processed

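UMI counts per gene and cell were deposited by the authors, 1 table per library, made with the BD WTA Rhapsody Analysis Pipeline 1.8 per the file headers; mm10 and Seurat are listed in the submitters' processing notes. The aligner and its settings are not given in the sources used here. Cells under 200 genes or over 25% mitochondrial UMIs were dropped, and cells marked by Scrublet were left out. Both libraries were clustered together with scanpy 1.11.5 (2000 variable genes without the 10 members, 30 components, 15 neighbours, Leiden resolution 1), and clusters were named from marker lists. UMIs were summed per class and library, divided by the class total and given as counts per 1000000 UMIs (CPM). Intervals are exact Poisson for levels, Clopper-Pearson for shares and conditional binomial for ratios, all at 95%. Classes needed 30 cells in each library and genes 20 UMIs. With 1 library per genotype no test was run. The calculation of ratios and intervals was checked on simulated Poisson counts. These held no mixed cells, free RNA or spread between embryos, so they say nothing on those errors. The 10 members and the gene lists were chosen with earlier results of these data known. All members were named; of the other lists, the 4 genes per class farthest from 1 by the nearer interval bound, and for Igf2, H19, Dlk1, Meg3 and Peg10 the 3 most correlated genes, with log2(CPM + 1). Mirg outside mesenchyme-like cells and the clusters singled out were chosen after their values were seen. TMM scaling used edgeR 4.0.16. The number of UMI columns not matched to a sample was 0.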

Additional observations from a re-analysis of the deposited data

Results flagged for a closer look

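For 7 members the Mettl3pKO to WT ratio was at least 1.5-fold above 1 in 1 class and at least 1.5-fold below 1 in another. The share of all genes that did so was not computed. By class, 8.75% to 29.6% of all genes were higher and 4.65% to 26.9% lower, so the count is not read as a trait of the members. The differences between classes were not tested, since each rests on 1 library per genotype. H19 was at 7.53 times WT in beta-like cells and at 0.653 in mesothelium-like cells. Igf2 was at 2.09 in duct and trunk-like cells and at 0.394 in mesothelium-like cells. Meg3 was at 2.39 in macrophage-like cells and at 0.535 in acinar-like cells. Peg10 was at 7.93 in macrophage-like cells and at 0.165 in erythroid-like cells. In macrophage-like cells 1 Mettl3pKO cell held 54 of the 87 Peg10 UMIs. The erythroid-like value rested on 20 UMIs in WT and 2 in Mettl3pKO (0.019 to 0.681), where 73.5% of the Mettl3pKO cells were mixed. Nnat was at 5.01 in alpha-like cells and at 0.271 in acinar-like cells. Mest was at 13.3 in beta-like cells and at 0.544 in mesothelium-like cells. Kcnq1ot1 was at 1.69 in macrophage-like cells and at 0.628 in mesenchyme-like cells. The macrophage-like value of Kcnq1ot1 rested on 16 UMIs in WT and 27 in Mettl3pKO, and its interval, 0.879 to 3.36, held 1. The higher value of each pair other than Igf2 came from a class with 17.7% to 35.7% mixed cells in Mettl3pKO. For Igf2 the class was duct and trunk-like, with 16.6% mixed cells in Mettl3pKO and 5.08% in WT. The Igf2 ratio there rested on 23 UMIs in each library, with an interval of 1.12 to 3.89. It was 2.39 without mixed cells (1.25 to 4.56). Without mixed cells H19 and Mest in beta-like cells were at 1.43 and 1.04, and Nnat in alpha-like cells at 1.54.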

How the results depend on the processing

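The ratio of Meg3 stayed below 1 under every alternative run in acinar-like (0.441 to 0.713), duct and trunk-like (0.548 to 0.733), alpha-like (0.593 to 0.757), beta-like (0.614 to 0.689), mesenchyme-like (0.619 to 0.799) and mesothelium-like cells (0.573 to 0.727). The counts of member and class pairs at least 1.5-fold higher in Mettl3pKO and of member and class pairs at least 1.5-fold lower in Mettl3pKO were 22 and 20 of 75, where by class 8.75% to 29.6% of all genes were higher and 4.65% to 26.9% lower, but moved with the cells kept. Those higher were 11 with a stricter cell filter, 12 with Scrublet-marked cells kept, 6 without cells holding 3 or more mesenchymal UMIs, 13 with finer clusters and also with classes from each cell's own markers, 14 among cells of 13000 or more UMIs, 13 among Y-linked and 7 among Xist cells, 10 without proliferating cells and 4 without mixed cells. Those lower were 11 among cells of 13000 or more UMIs, 9 among Xist cells, 7 without proliferating cells, 13 without mixed cells and 6 at a 2-fold threshold. Shares of all genes under these alternatives were computed only without mixed cells. Several alternatives leave fewer classes with 30 cells, and other causes were not tested. No paired analysis was possible because each genotype has 1 library.

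Some ratios past 1.5-fold changed sides of 1, and the cause was not tested; several ratios nearer to 1 also did, among them those of Dlk1 in duct and trunk-like cells and Peg10 in mesothelium-like cells. Classes from own markers gave Peg10 in duct and trunk-like cells 1.19, Nnat in mesenchyme-like cells 2.04, Dlk1 in erythroid-like cells 0.906, Peg3 in erythroid-like cells 0.864 and Mest in erythroid-like cells 0.784. The stricter cell filter gave Nnat in alpha-like cells 0.236, Cdkn1c in alpha-like cells 0.675 and Peg10 in macrophage-like cells 0.508. With Scrublet-marked cells kept, Nnat in alpha-like cells was 0.481, Peg10 in beta-like cells 0.627, Cdkn1c in beta-like cells 0.953 and Meg3 in macrophage-like cells 0.874. Without cells holding mesenchymal UMIs, Nnat in alpha-like cells was 0.986 and Peg10 in beta-like cells 0.317. Finer clusters gave Cdkn1c in alpha-like cells 0.828, Mest in beta-like cells 0.884 and Peg10 in macrophage-like cells 0.421. Variable genes chosen per library gave Nnat in alpha-like cells 0.263 and Cdkn1c in alpha-like cells 0.827. With the imprinted genes used for clustering, Cdkn1c in alpha-like cells was 0.867 and Kcnq1ot1 in macrophage-like cells 0.810. With no cell filter, Peg10 in macrophage-like cells was 0.470 and Kcnq1ot1 in macrophage-like cells 0.794. Without proliferating cells Peg10 in beta-like cells was 0.949, and among Y-linked cells Nnat in mesenchyme-like cells was 1.48. TMM scaling moved the median of all genes by -0.12 (log2) in acinar-like, macrophage-like and erythroid-like cells.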

Other observations

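In WT erythroid-like cells H19 was at 3267 CPM in 35 cells with Xist and at 85.2 CPM in 46 cells with Y-linked UMIs. The erythroid cluster led by Hbb-bt held 3428 CPM over 44 WT cells, and the cluster led by Car2 held 77.9 CPM over 69 WT cells. Of the WT erythroid-like cells, 21.2% were mixed.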
